A study of Rattus norvegicus with 12 samples.

Results

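Il1rl1, Il18r1 and Il18rap are neighbouring genes on the plus strand of rat chromosome 9 that encode receptor chains for interleukin-33 and interleukin-18. They were taken by symbol from a table of detected protein-coding genes, as 3 of the 13733 genes listed there, and they had been picked because of their levels in the contrast described here. Their group levels are therefore given as a description, without a test. Other genes were taken by position or by a pathway list and carry the adjusted p of a test over all listed genes. The positions lie around genes picked for this contrast, and the lists were chosen with earlier results of these data known. These tests are thus not independent of that choice.

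Dispersed islet cells from male Wistar rats aged 3 months were transfected with 30 pmol of an antisense oligonucleotide directed at mt-tRF-LeuTAA, a fragment of the mitochondrial leucine tRNA (anti-mt-tRF-LeuTAA, n = 6), or with a scrambled oligonucleotide (anti-control, n = 6). Both groups received Lipofectamine 2000, and RNA was taken after 72 h. The study counts the islets of 6 rats, each n being 1 rat, and the libraries are numbered 1 to 6 in each group. Total RNA was sequenced, so the values are averages over all cells of a dish, and fewer cells of a type cannot be told apart from less RNA per cell.

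Il1rl1 encodes ST2, the receptor chain that binds IL-33, an alarmin released by damaged epithelial, endothelial and stromal cells. Il18r1 encodes the chain that binds IL-18, and Il18rap the accessory chain that joins it to form the signalling complex. All these chains carry a TIR domain inside the cell, through which MyD88, IRAK kinases and TRAF6 lead to NF-kB and MAP kinases. ST2 is best known from mast cells, type 2 innate lymphoid cells and regulatory T cells, and the IL-18 receptor from T cells and NK cells. In rodents, Il1rl1 gives a membrane-bound and a soluble form of ST2, which values per gene do not separate.

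The 3 genes stand in a row of IL-1 receptor family genes that are read in the same direction. On the assembly Rnor_6.0, Il1rl1 (ENSRNOG00000014835) spans chr9:47134034-47182170, Il18r1 (ENSRNOG00000015027) chr9:47185443-47219175 and Il18rap (ENSRNOG00000054218) chr9:47225585-47258503, exons and introns included. A gap of 3.27 kb separates Il1rl1 from Il18r1, and 6.41 kb separate Il18r1 from Il18rap. The nearest listed gene before the cluster, Il1rl2, ends 38.2 kb ahead of Il1rl1, and the next one behind it, Slc9a4, starts 23.5 kb after Il18rap. In the RefSeq annotation of the newer assembly GRCr8 the order was Il1r2, H3f3al3, Il1r1, Il1rl2, Il1rl1, Il18r1, Il18rap, Slc9a4, Slc9a2 and Mfsd9, and all of these except H3f3al3 were in the deposited table.

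Promoter windows from RefSeq (GRCr8, plus strand) are shown for the pair of cluster genes with an entry and for Il1rl2, the gene in front of them. These letters are what lies at each start annotated there, while the levels below rest on reads per gene of the Rnor_6.0 annotation. Each window runs from 250 bases before to 50 bases after the start site. Capitals mark matches, on either strand, to any of 5 short motifs searched. The TATA box was searched as TATAAA. The GC box, bound by Sp1 and its relatives, was searched as GGGCGG. The site of the stress-responsive factor AP-1 was searched as TGANTCA. The site of the GATA factors was searched as AGATAA, and the box bound by NF-Y as CCAAT. The windows are chr9:50203388-50203687 for Il1rl1, chr9:50223241-50223540 for Il18r1 and chr9:50087302-50087601 for Il1rl2. The windows of Il1rl1 and Il18r1 lie much closer together than the Rnor_6.0 starts of these genes (47134034 and 47185443). The Il1rl1 window may therefore lie inside the span over which its reads were counted, and not at its start.
Il1rl1: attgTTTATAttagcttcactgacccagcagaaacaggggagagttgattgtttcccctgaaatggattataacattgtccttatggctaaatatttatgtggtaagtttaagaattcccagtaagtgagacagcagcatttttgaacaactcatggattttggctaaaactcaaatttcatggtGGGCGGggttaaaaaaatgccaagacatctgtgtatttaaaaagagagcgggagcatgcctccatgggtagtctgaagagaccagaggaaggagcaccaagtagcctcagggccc
Il18r1: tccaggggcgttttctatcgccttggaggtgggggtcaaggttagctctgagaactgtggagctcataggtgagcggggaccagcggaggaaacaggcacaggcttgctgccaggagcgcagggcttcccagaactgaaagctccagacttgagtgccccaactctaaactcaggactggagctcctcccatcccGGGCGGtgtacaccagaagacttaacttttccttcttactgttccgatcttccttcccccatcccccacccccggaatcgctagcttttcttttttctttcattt
Il1rl2: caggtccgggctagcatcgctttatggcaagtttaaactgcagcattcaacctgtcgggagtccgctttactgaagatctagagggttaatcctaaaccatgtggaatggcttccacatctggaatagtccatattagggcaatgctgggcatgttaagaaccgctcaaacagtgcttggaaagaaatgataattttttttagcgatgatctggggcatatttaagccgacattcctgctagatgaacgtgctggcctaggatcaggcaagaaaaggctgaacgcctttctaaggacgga

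The windows of Il1rl1 and Il18r1 shared a match to the GC box, at positions -65 and -55 from the start site. This motif was present in 33.1% of the 33469 rat promoters of the same length, so that it does not set the pair apart. Il1rl1 also had a match to the TATA box, far from the start site at position -246, and such a match was found in 14.2% of promoters. The AP-1 site (7.33% of promoters), the GATA site (11.6%) and the NF-Y box (37.5%) had no match in either window, and the window of Il1rl2 had no match to any of the 5 motifs. G and C made up 42.0% of the Il1rl1 window and 55.0% of that of Il18r1, with 44.7% and 60.3% as the quartiles over all promoters. A match is a run of letters and was not tested as a binding site.

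The libraries held 17.6 to 23.4 M (mega) listed reads in anti-control and 16.4 to 20.3 M in silenced cells. Listed genes without a read numbered 116 to 196 per anti-control library and 4 to 18 per silenced library. Beta-cell markers were present in both groups, with Ins1 at 16.29 ± 0.34 and 16.37 ± 0.29 log2 CPM (SD, n = 6 each). Over all listed genes, 1494 were called higher (10.9%) and 638 lower (4.65%) by limma without block, at a Benjamini-Hochberg adjusted p of at most 0.05. With the replicate number added as a block, these counts were 2412 (17.6%) and 2431 (17.7%). The replicate numbers pair the libraries, and without the block differences between rats stay in the error. A missing call in the fit without block therefore does not show that a gene was unchanged. Each limma adjusted p and SE below is from that fit unless the block is named. Differences are silenced minus anti-control, in log2 CPM, the logarithm of counts scaled to the size of a library.

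Transcripts of both IL-18 receptor chains were scarce in anti-control cells, at 4.28 CPM or less, and stood at 49.6 CPM or more in every silenced library, whereas Il1rl1 was already present in anti-control cells. Il18r1 had 30, 41, 41, 44, 16 and 19 reads in anti-control replicates 1 to 6, and 2240, 1855, 1051, 1426, 1183 and 977 reads in the silenced replicates of the same numbers. Il18rap, the accessory chain, had 37, 27, 12, 10, 26 and 72 reads in anti-control and 1710, 1343, 966, 1181, 1149 and 1221 after silencing. For both genes the lowest silenced library was far above the highest anti-control library. Il1rl1, the IL-33 receptor chain, had 282, 727, 805, 501, 3908 and 963 reads in anti-control and 1683, 1941, 962, 1160, 4396 and 2279 after silencing. Its groups overlapped. Anti-control replicate 5 stood above every silenced library except replicate 5 of that group, and by CPM anti-control replicate 6 (57.2) also stood above silenced replicates 3 (52.7) and 4 (56.5).

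On the log2 scale, Il18r1 had a level of 0.64 ± 0.63 in anti-control (lowest -0.37, median 0.81, highest 1.27) and of 6.17 ± 0.50 after silencing (5.63, 5.99 and 6.83; SD, n = 6 each). The difference was 5.53, or 46.1-fold, which ranked 71 among the 13733 differences from the highest down. Il18rap went from a level of 0.40 ± 1.06 (-0.94, 0.40 and 2.11) to one of 6.01 ± 0.28 (5.73, 5.90 and 6.44), a difference of 5.61, or 48.9-fold, at rank 65. On this scale the spread of the accessory chain between libraries was smaller after silencing than in anti-control, where it had 10 to 72 reads per library. In CPM per kb of gene span its SD was larger after silencing, at 0.410 against 0.0419 in anti-control. Il1rl1 had a log2 level of 5.39 ± 1.27 in anti-control (3.72, 5.38 and 7.46) and of 6.56 ± 0.75 after silencing (5.72, 6.61 and 7.75). Its difference was 1.17, or 2.25-fold, at rank 838, and 1.59 without anti-control replicate 5. In each of the 3 genes the silenced library was higher than the anti-control library of the same number in 6 of 6 pairs. Without an overlap between groups in this direction were 7.92% of all listed genes. Il18r1 and Il18rap were among them and Il1rl1 was not, and nothing further is read from this count because the same contrast served to choose the genes.

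**Figure D1:**
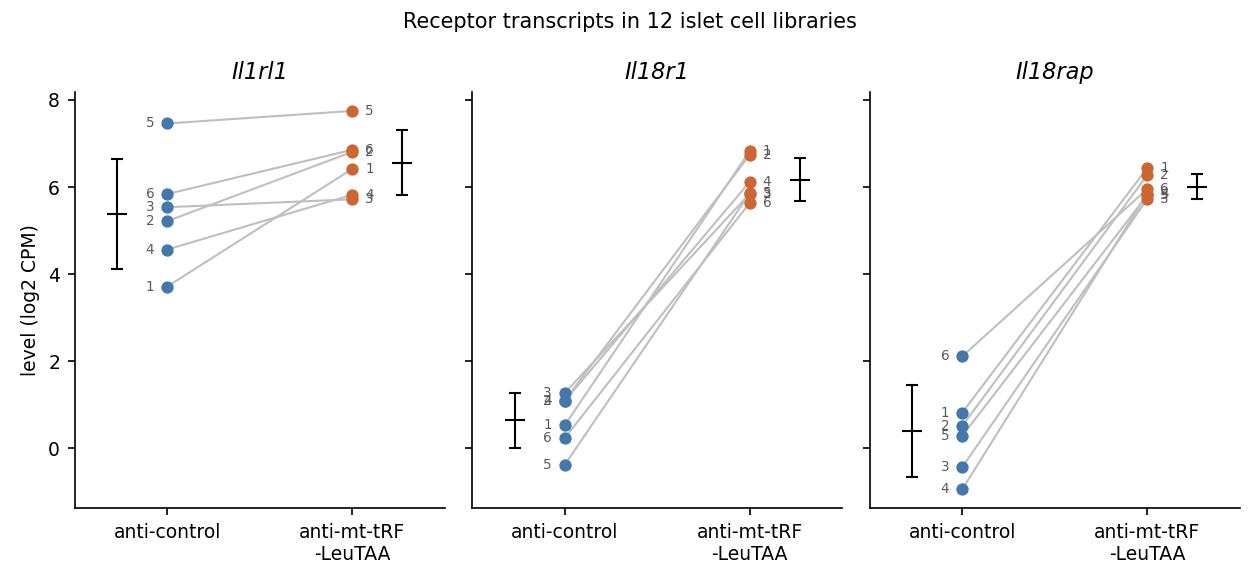
Levels of the 3 receptor genes (vertical axis, log2 CPM) in the 6 anti-control (blue) and 6 anti-mt-tRF-LeuTAA libraries (orange). Each point is 1 library with its replicate number, grey lines join libraries of the same number, and black bars give the mean ± SD. Il18r1 and Il18rap lie at or below 2.11 in anti-control and at or above 5.63 after silencing, while Il1rl1 overlaps between 5.72 and 7.46.

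In anti-control cells Il1rl1 lay above both IL-18 receptor chains, and after silencing the 3 genes did not differ in level beyond their spread. Levels of different genes were compared per kb of gene span, introns included, because the length of the exons is not in the table. In anti-control, Il1rl1 stood at 1.22 ± 1.23 CPM per kb of span, with Il18r1 at 0.0483 ± 0.0191 and Il18rap at 0.0492 ± 0.0419 (SD, n = 6). The latter pair did not differ beyond its spread, and Il1rl1 was above both in every library. After silencing the level was 2.21 ± 1.24 CPM per kb for Il1rl1, 2.25 ± 0.81 for Il18r1 and 1.99 ± 0.41 for Il18rap. As a share of the CPM of the 3 genes together, which is not corrected for length, Il1rl1 held 91.1 ± 5.93% in anti-control and 41.2 ± 14.2% after silencing. Il18r1 went from 4.78 ± 3.24% to 31.4 ± 9.29% and Il18rap from 4.11 ± 3.86% to 27.4 ± 5.62% (SD, n = 6 each).

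Each of the 3 genes gained CPM in every pair of same-numbered libraries. The gain was 47.3 ± 26.3 CPM for Il1rl1 (6.28 to 74.8), 74.2 ± 27.3 for Il18r1 (48.5 to 112) and 63.8 ± 13.3 for Il18rap (52.2 to 84.9; SD, n = 6 pairs). Pairs 1 and 2 had the largest gain for all 3 genes, at 72.2 and 74.8 CPM for Il1rl1, 112 and 105 for Il18r1 and 84.9 and 76.0 for Il18rap. Il1rl1 gained least in pair 3, with 6.28 CPM. Per kb of span the gain was 0.982 ± 0.546 CPM for Il1rl1, 2.20 ± 0.81 for Il18r1 and 1.94 ± 0.41 for Il18rap. These are differences of the quantity that chose the genes and were not tested.

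Within a group, no relation between the genes over libraries passed adjustment, and with 6 libraries per group a relation can be missed. Of 6 relations between pairs of the 3 genes, each over the 6 libraries of 1 group, only Il18r1 with Il18rap after silencing had an unadjusted p under 0.05 (Pearson r = 0.880, exact permutation over 720 pairings, two-sided p = 0.0389, Benjamini-Hochberg adjusted p = 0.233). Its Spearman rho was 0.657 (exact permutation p = 0.175, adjusted p = 0.839), and without the 2 libraries farthest from the median Pearson r was -0.39, so that the relation rested on replicates 1 and 2. The other 5 relations had r from -0.61 to 0.12 (exact permutation, adjusted p of at least 0.604). The log2 ratio of Il18rap to Il18r1 had an SD of 1.54 over the anti-control libraries, where each gene had 10 to 72 reads, and of 0.285 over the silenced ones.

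The higher levels were not limited to the cluster. Of the 4 other listed genes within 200 kb, 3 rose and 0 fell by limma without block, against 10.9% and 4.65% of all listed genes. These 3 genes, Il1rl2, Slc9a4 and Slc9a2, lie on both sides of the cluster and on the same strand. Slc9a4 had almost no anti-control reads and is listed through its silenced libraries, so its part in this count was largely given by the listing.

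Il1rl2 (ENSRNOG00000014683, chr9:47047832-47095831) encodes the receptor of the IL-36 cytokines and lies just in front of the cluster. Its level was 7.62, 6.84, 8.53, 7.27, 18.8 and 7.84 CPM in anti-control replicates 1 to 6 and 126, 120, 118, 123, 72.1 and 64.5 CPM after silencing. The groups did not overlap, and anti-control replicate 5 was again the highest of its group. On the log2 scale Il1rl2 rose from 3.15 ± 0.54 to 6.65 ± 0.43 (SD, n = 6 each), a difference of 3.50 (SE 0.26, limma adjusted p = 7.38e-07), in 6 of 6 pairs. Without anti-control replicate 5 the difference was 3.71.

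Slc9a4 and Slc9a2, which encode sodium/proton exchangers known from epithelia of the gut, follow the cluster. Slc9a4 (ENSRNOG00000015306, chr9:47281961-47328839) had 0 reads in 5 anti-control libraries and 8 reads in replicate 5, and 323, 385, 230, 197, 310 and 280 reads after silencing. All silenced libraries were thus far above the anti-control ones. The ratio of its mean CPM was 250.2, which rests on the 8 reads of 1 library. The gene was called higher (limma adjusted p = 2.36e-07, and 2.22e-09 without anti-control replicate 5). The smaller p came from 5 anti-control libraries that all held the lowest value, without spread. With so few anti-control reads, the listing of Slc9a4 as detected rests on its silenced libraries, so its call is not independent of that listing. Slc9a2 (ENSRNOG00000015567, chr9:47386626-47491907) had 4.55 to 8.73 CPM in anti-control and 22.3 to 51.6 CPM after silencing, again without overlap. It rose from 2.73 ± 0.35 to 5.13 ± 0.47 log2 CPM, a difference of 2.41 (SE 0.22, limma adjusted p = 5.37e-06), in 6 of 6 pairs.

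Il1r1 (ENSRNOG00000014504, chr9:46962288-47036670), the signalling receptor of IL-1, stands 11.2 kb in front of Il1rl2 and was by far the most abundant gene of the region. Its level per kb of span was 28.8 ± 7.47 CPM in anti-control cells and 23.4 ± 6.01 CPM in silenced cells (SD, n = 6 each), and its log2 level 11.02 ± 0.39 and 10.73 ± 0.38. The difference of -0.30 (SE 0.21) was not called without the block (limma adjusted p = 0.411). It was lower in 6 of 6 pairs and was called with the replicate block (adjusted p = 0.0249), so that 1 of the 4 neighbours fell in that fit, where 17.7% of all listed genes were called lower.

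The listed genes just outside the window were not called higher. Il1r2 (ENSRNOG00000014378, chr9:46840992-46881264), the decoy receptor of IL-1, ends 252.8 kb before the cluster and went from 3.79 ± 0.71 to 4.07 ± 0.47 log2 CPM (difference 0.28, SE 0.32, limma adjusted p = 0.638). Mfsd9 (ENSRNOG00000023129, chr9:47496984-47516460), which encodes a membrane protein of the major facilitator superfamily, starts 238.5 kb behind the cluster and is read from the opposite strand. Its log2 level was 2.87 ± 0.18 in anti-control and 2.27 ± 0.45 in silenced cells (difference -0.60, SE 0.20, limma adjusted p = 0.0588). It was called lower with the replicate block (adjusted p = 0.0127).

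Along the row of genes, levels per kb of span after silencing differed by less than their spread from Il1rl2 to Il18rap and were lower behind them. They were 2.16 ± 0.58 CPM per kb for Il1rl2, 2.21 ± 1.24 for Il1rl1, 2.25 ± 0.81 for Il18r1 and 1.99 ± 0.41 for Il18rap. Behind the cluster they were 0.320 ± 0.090 for Slc9a4 and 0.348 ± 0.108 for Slc9a2 (SD, n = 6). In anti-control the levels of these genes differed more, from 0.0013 ± 0.0031 CPM per kb for Slc9a4 and 0.0639 ± 0.0147 for Slc9a2 to 0.198 ± 0.096 for Il1rl2 and 1.22 ± 1.23 for Il1rl1. The gain per pair was 94.4 ± 30.7 CPM for Il1rl2, 15.0 ± 4.22 for Slc9a4 and 29.9 ± 12.5 for Slc9a2. Reads are assigned here to genes, and not to start sites, so from these values RNA begun at a gene's own promoter cannot be told apart from RNA that runs in from a gene further upstream.

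**Figure D2:**
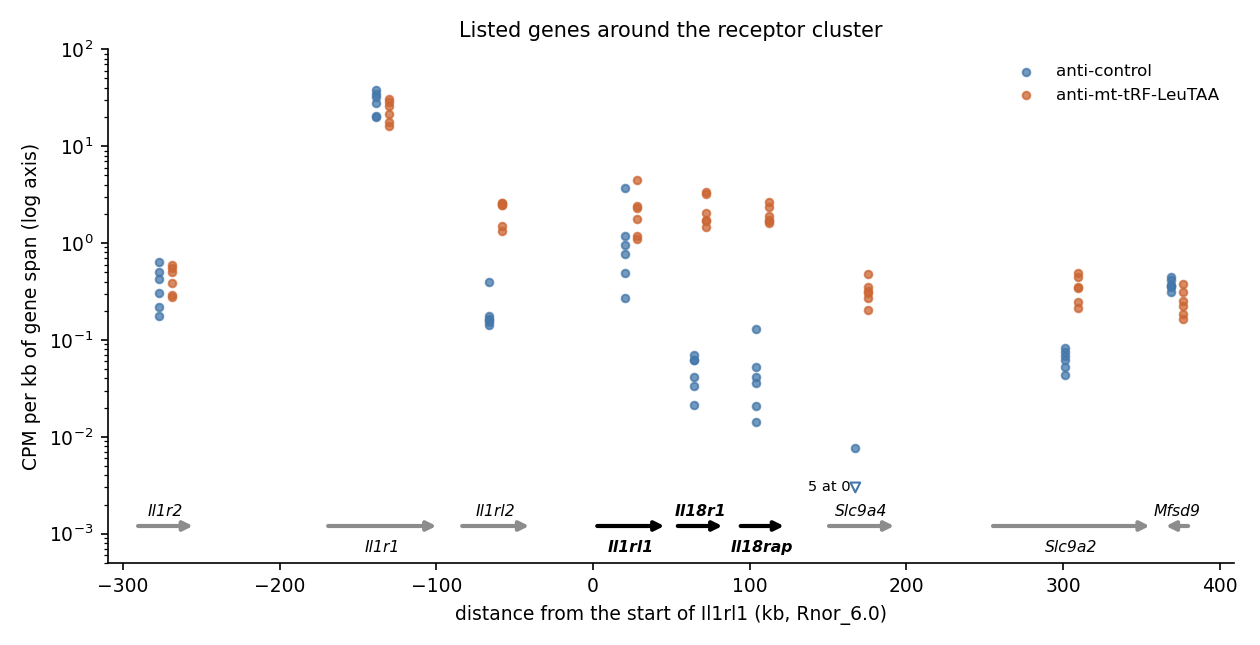
Level of each listed gene of the region in CPM per kb of gene span (vertical axis, logarithmic) against distance from the start of Il1rl1 in kb (Rnor_6.0). Each point is 1 library, anti-control in blue and anti-mt-tRF-LeuTAA in orange, arrows give span and strand with the 3 receptor genes in black, and the open triangle stands for the 5 anti-control libraries of Slc9a4 at 0. From Il1rl2 to Il18rap the mean silenced levels lie between 1.99 and 2.25, while Il1r1 lies above 10 and the groups of Il1r2 and Mfsd9 overlap.

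**Figure D3:**
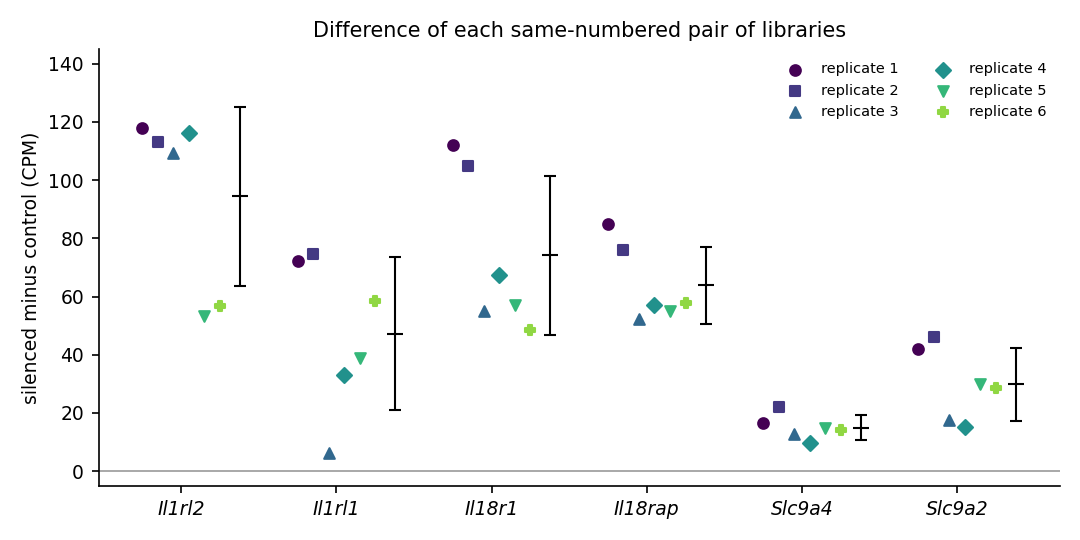
Difference in CPM, silenced minus anti-control, of each same-numbered pair of libraries (vertical axis) for 6 neighbouring genes in their order along the chromosome. Each symbol is 1 pair and black bars give the mean ± SD over the 6 pairs. All points lie above 0, and pairs 1 and 2 are the highest of Il1rl1, Il18r1, Il18rap, Slc9a4 and Slc9a2.

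Ligands of the receptors were measured in all libraries and were not called higher. Of 7 measured genes for IL-18, IL-33, the IL-18 decoy and their processing, 0 rose and 0 fell by limma without block (1 had an unadjusted p under 0.05, 0 were called by limma-voom). Of all listed genes, 10.9% rose and 4.65% fell in that fit. With the replicate block 2 of the 7 fell, where 17.7% of all listed genes were called lower. The median difference of the list was -0.38, and that of all listed genes -0.04. Il33 went from 5.94 ± 0.65 to 5.19 ± 0.75 log2 CPM (difference -0.75, SE 0.36, limma adjusted p = 0.199, and 0.0489 with the block). Gsdmd, the pore-forming gasdermin D, through which IL-1 family cytokines leave cells, had a difference of -0.45 (SE 0.19, adjusted p = 0.132, and 0.00191 with the block). These are the 2 genes of the list that fell with the block.

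Il18 itself stood at 2.41 ± 0.46 and 2.10 ± 0.42 log2 CPM (difference -0.32, limma adjusted p = 0.452). Il18bp, the soluble protein that binds and neutralises IL-18, stood at 4.76 ± 0.53 and 4.67 ± 0.53 (difference -0.10, adjusted p = 0.866). The genes of the inflammasome, which matures IL-18, had differences of -0.45 for the protease Casp1 (adjusted p = 0.607), -0.38 for the adaptor Pycard (0.647) and -0.29 for the sensor Nlrp3 (0.857). None of these 5 genes was called with the block.

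Among the other measured chains of the IL-1 receptor family, Il1rl2 was the only one of 5 called without the block. In that fit 10.9% of all listed genes were called higher and 4.65% lower. With the block 3 of the 5 fell, where 17.7% of all listed genes were called lower. Il1rap encodes the accessory chain that IL-33, IL-1 and IL-36 receptors share, and its log2 level was 4.01 ± 0.41 in anti-control and 3.51 ± 0.38 in silenced cells. The difference of -0.50 (SE 0.21, limma adjusted p = 0.144) was called with the replicate block (0.00146) and was lower in 6 of 6 pairs. Sigirr, an inhibitory family member, had a difference of -0.28 (SE 0.12, adjusted p = 0.121, and 0.0149 with the block). The third gene lower with the block was Il1r1. Il1rapl1 and Il1rapl2 were not listed. Of the 8 other IL-1 family ligands 2 were listed, Il1rn, the natural IL-1 antagonist, with a difference of 0.20 (SE 1.00, adjusted p = 0.927) and Il1a with 0.35 (SE 1.04, adjusted p = 0.873).

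Genes that carry the signal from the TIR domain were called in both directions with the block and only lower without it. Of 22 measured transducers, 0 rose and 2 fell without the block, against 10.9% and 4.65% of all listed genes. With the block 3 rose and 6 fell, against 17.6% and 17.7% of all listed genes. The list median was -0.04 beside -0.04 for all listed genes. Mapk8, which encodes the kinase JNK1, fell from 4.62 ± 0.20 to 4.19 ± 0.05 log2 CPM (difference -0.43, SE 0.09, limma adjusted p = 0.00727). Irak1, the kinase recruited by MyD88, fell from 8.10 ± 0.11 to 7.88 ± 0.09 (difference -0.22, SE 0.07, adjusted p = 0.0356), and with 1 library removed at a time its adjusted p was above 0.05 in 8 of 12 fits and reached 0.0736. Both were lower in 6 of 6 pairs.

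Calls among genes known to respond to NF-kB depended on the block. Of 20 measured, 0 rose and 0 fell by limma without block (3 had an unadjusted p under 0.05, 0 were called by limma-voom), against 10.9% and 4.65% of all listed genes. With the replicate block 10 rose and 1 fell, against 17.6% and 17.7% of all listed genes. The list median was 0.52. Sod2, the mitochondrial superoxide dismutase, went from 10.04 ± 1.77 to 10.58 ± 1.40 log2 CPM (difference 0.54, SE 0.83, limma adjusted p = 0.737, and 0.0466 with the block). Nfkbia, the inhibitor of NF-kB that NF-kB itself induces, had a difference of 1.26 (SE 0.52, adjusted p = 0.132, and 7.35e-05 with the block) and was higher in 6 of 6 pairs.

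**Figure D4:**
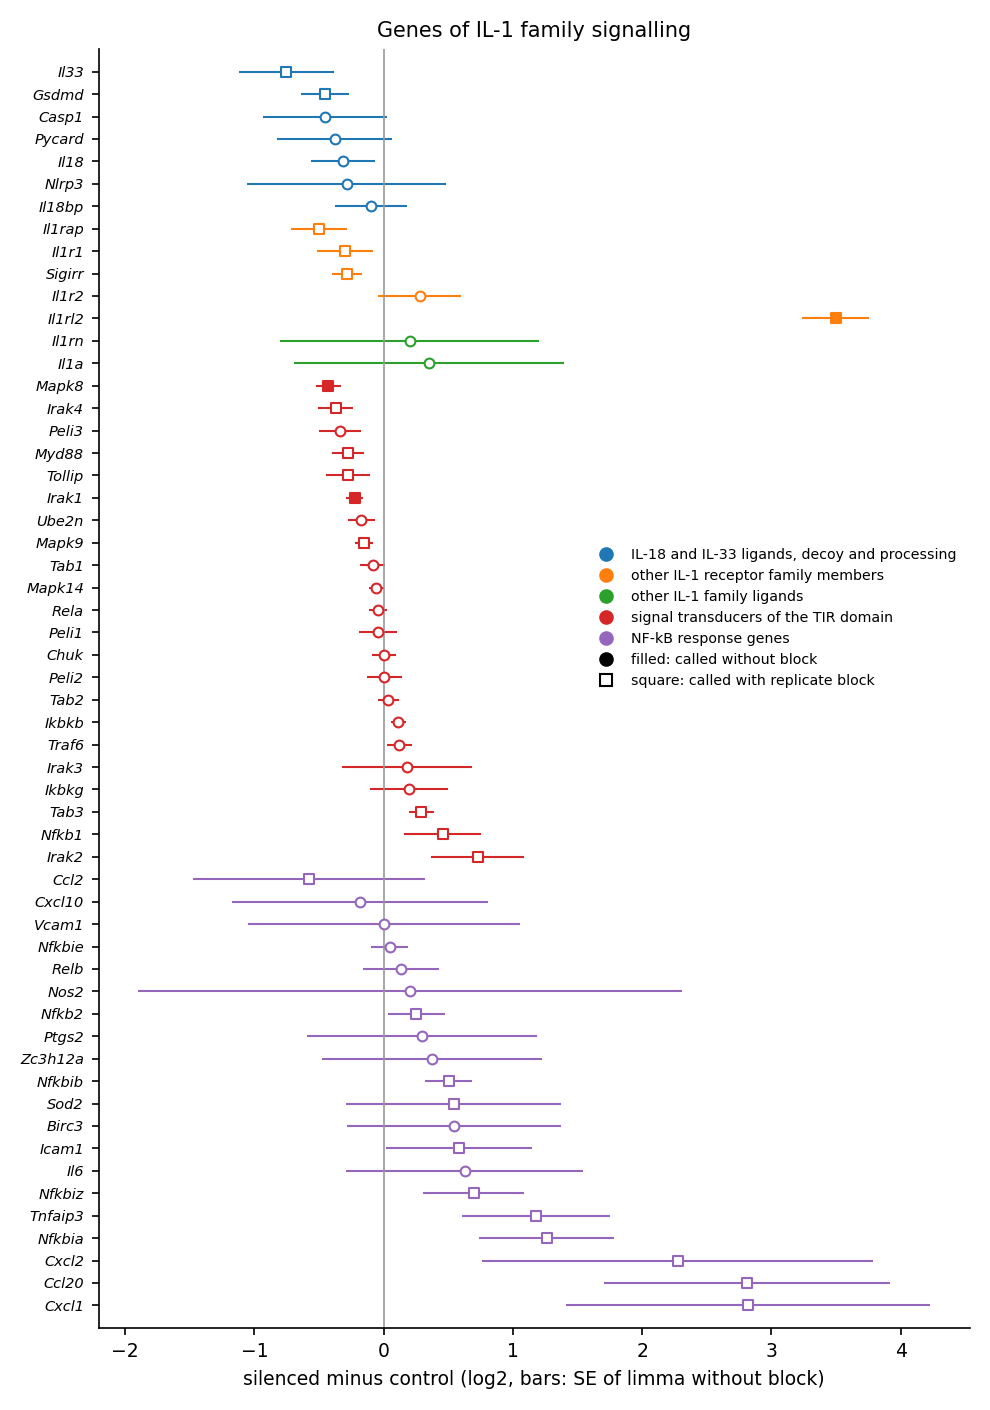
Differences (horizontal axis, silenced minus anti-control, log2) of 56 measured genes of IL-1 family signalling, grouped by list in colour, with bars for the SE of limma without block. Filled symbols were called without the block and squares with the replicate block. Il1rl2 at 3.50 is the only gene called higher without the block, and the NF-kB response genes hold 10 of the 14 called higher with it.

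Markers of the lymphoid and mast cells from which these receptors are best known were mostly not listed. Of 12 T and NK cell markers, only Cd4 and Cd8a were listed, and the Cd3 genes were not. Their summed level was 2.41 to 9.32 CPM in anti-control and 2.14 to 5.53 CPM after silencing. Cd4 had a difference of -0.23 (limma adjusted p = 0.765) and Cd8a one of 0.34 (adjusted p = 0.742). Of 10 lymphocyte products driven by IL-18 or IL-33, Areg and Gata3 were listed, and Ifng, Il5 and Il13 were not. Gata3, a transcription factor of type 2 lymphocytes, rose from -1.30 ± 0.97 to 0.47 ± 0.63 log2 CPM (difference 1.77, SE 0.46, limma adjusted p = 0.0188), but lost this call with quantile normalization (0.144).

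Of 9 mast cell markers, Kit and Hdc were listed and Cpa3, Fcer1a and Ms4a2 were not. Kit, the receptor of stem cell factor, had a difference of -0.33 (SE 0.26, limma adjusted p = 0.459, and 0.0135 with the block). Hdc, the histidine decarboxylase that makes histamine, rose from -0.75 ± 1.04 to 3.65 ± 0.80 log2 CPM (difference 4.40, SE 0.49, adjusted p = 3.19e-05). The summed level of Kit and Hdc was 118 to 251 CPM in anti-control and 101 to 209 CPM after silencing. This sum was mostly Kit, since Hdc had a mean of 0.648 CPM in anti-control and 14.06 CPM after silencing. It therefore follows the level of Kit, does not show the rise of Hdc and is not read as a measure of mast cells. Of 6 markers of type 2 innate lymphoid and regulatory T cells, 3 were listed, without Foxp3, and their sum was 0.654 to 8.53 CPM and 2.46 to 6.40 CPM. Il2ra, an interleukin-2 receptor chain, had a difference of 0.40 (adjusted p = 0.768) and the costimulator Icos one of -0.32 (adjusted p = 0.711).

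Macrophage and endothelial markers were present in every library. Of 8 measured leukocyte and macrophage markers, 2 rose and 0 fell without the block, against 10.9% and 4.65% of all listed genes, and 1 fell with it, against 17.7%. Their sum was 43.6 to 129 CPM in anti-control and 58.6 to 141 CPM after silencing. The 2 that rose were Cd68 (difference 2.02, SE 0.44, limma adjusted p = 0.00735) and Mrc1 (2.68, SE 0.31, adjusted p = 4.25e-05), the latter chosen after its values were seen, while the common leukocyte antigen Ptprc (-0.05, adjusted p = 0.956) and Csf1r (-0.21, adjusted p = 0.875) were not called. Adgre1 had a difference of -0.79 (adjusted p = 0.674, and 0.0259 with the block). Of 6 measured endothelial markers 0 rose and 0 fell without the block (0 had an unadjusted p under 0.05), against the same 10.9% and 4.65%. With the block 2 rose, against 17.6% of all listed genes. Their sum was 27.3 to 510 CPM in anti-control and 51.2 to 480 CPM after silencing.

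Cdh5 and Kdr, the endothelial genes with the highest log2 CPM, had differences of 0.36 (limma adjusted p = 0.880) and 0.57 (adjusted p = 0.758, and 0.00455 with the block). Replicates 1 and 2, with the highest Il18r1 and Il18rap levels after silencing, also had the highest endothelial sums of that group, at 480 and 471 CPM. In anti-control the same numbers had sums of 510 and 372 CPM at an Il18r1 level of 1.39 and 2.09 CPM. The part of these cells in the levels of the receptor genes was not tested. Of 7 measured beta-cell markers, 0 rose and 1 fell without the block, against 10.9% and 4.65% of all listed genes. With the block 0 rose and 2 fell, against 17.6% and 17.7%. The list median was -0.38 beside -0.04 for all listed genes. The genes that fell, named after their values were seen, were Pdx1 (difference -0.68, SE 0.18, limma adjusted p = 0.0181) and, with the block, also Nkx6-1 (-0.47, adjusted p = 0.00214 with the block, lower in 6 of 6 pairs), both transcription factors of beta cells. Ins2 had a difference of 0.04 (adjusted p = 0.975).

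Other genes had patterns over the 12 libraries close to those of the receptor genes. Likeness was measured as the root mean square difference of log2 levels after each gene was centred on its own mean, with smaller values for closer patterns. Closest to Il1rl1 were Ctss (0.554), which encodes cathepsin S of antigen-presenting cells, the integrin gene Itga4 (0.589) and the collectin gene Colec11 (0.591). Closest to Il18r1 were Rsph6a (0.461), AC130253.1 (0.465) and Drc7 (0.478), of which Rsph6a and Drc7 are known from the sperm axoneme in mouse. Closest to Il18rap were Lman1l (0.448), Slc3a1 (0.464), a subunit of a cystine transporter, and Nup210l (0.476). All 9 lie on other chromosomes, and the last 6 had differences between groups of 5.13 to 5.89, close to those of the IL-18 receptor chains. This closeness follows from the measure, which includes the difference between groups, and nothing further is read from it.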

How the data were processed

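RNA-sequencing was performed on 12 libraries of stranded total RNA. Tools listed in the submitters' processing notes were R 4.0.3 with edgeR 3.30.3 and limma 3.44.3, HTSeq 0.9.1, STAR 2.5.3a and cutadapt 1.8, with Rnor_6.0 as assembly. The sources used here do not give what each tool did or whether counting used the strand. Antisense reads may therefore be included. The authors deposited log2 CPM values, which include a small prior count, for 13733 detected protein-coding genes. The same table holds the authors' group means, fold changes, p-values and adjusted p-values, and 3 further tables list changed genes. None of these were used.

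The lowest value stood for 0 reads in all libraries, and back-transformation gave whole reads for 100% of values (tolerance 0.01 reads), from which reads and CPM were computed. Chi-square per degree of freedom between libraries of a group was at least 19.1, so no library repeated another. Intervals and floors would cover counting error only, and none are given.

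Groups were compared with limma 3.58.1 (R 4.3.3), applied to the deposited log2 values (12 libraries, intensity trend, no block), with Benjamini-Hochberg adjustment over all 13733 genes. The design allowed for counts or log values, and the deposited unit decided for limma. The test was also run on simulated reads drawn without differences between rats, so that check does not cover paired libraries. The replicate numbers pair the libraries: the study names 6 rats, and libraries of the same number, once group means were subtracted, had correlations of 0.569 to 0.888 over 6867 genes at or above the median level. Libraries of different numbers reached up to 0.864, so the ranges overlap. Of the libraries, 5 of 6 anti-control and 6 of 6 silenced ones correlated best with their own number. A fit with the replicate block is given where it changed a call or a count. Its counts over all listed genes, 2412 higher and 2431 lower, equal those the study reports at the same threshold. Without the block, differences between rats stay in the error, so a missing call there does not show that a gene was unchanged.

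The members, gene lists and tests were chosen with earlier results of these data known. Named were the 3 members, listed genes within 200 kb and the next on each side, all measured ligand and receptor family genes, up to 4 called genes (or the 2 most abundant) of each other pathway list, the 2 most abundant markers of each cell type, and the 3 genes most alike to each member. Alternatives were the block, quantile normalization, log2(CPM + 1), genes at or above the median level, a 100 kb window, limma without trend, limma-voom on recovered reads, and leaving out each library. Limma without trend and limma-voom were applied to lists and neighbours after the data had been seen. Promoter sequences and gene order are from RefSeq (GRCr8), with 7 of the 9 listed genes of the region matched, and no GRCr8 coordinate was carried over to Rnor_6.0.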

Additional observations from a re-analysis of the deposited data

Results flagged for a closer look

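Among 18 genes of the region, the ligand list and the receptor family, 36 groups of 6 libraries were examined for a library that stands apart from the other 5 by Dixon's criterion, and 4 did, where chance gives about 1 in 20 groups. Anti-control replicate 5 had the highest level of Il1rl2 in its group (4.24 log2 CPM) and the only reads of Slc9a4 (-1.28 log2 CPM). Because the other 5 libraries had 0 reads of Slc9a4, any reads at all would have met the criterion, and the chance rate does not apply to that flag. The same library was the highest anti-control library for Il1rl1 and the lowest for Il18r1. Nlrp3 was lowest in anti-control replicate 6 (-1.79 log2 CPM) and Pycard in anti-control replicate 4 (-0.00771 log2 CPM). Their causes were not tested.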

How the results depend on the processing

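The differences of the 3 receptor genes kept their direction under every alternative that gave a value, with leave-one-out ranges of 0.84 to 1.59 for Il1rl1, 5.32 to 5.65 for Il18r1 and 5.35 to 5.96 for Il18rap, and with Il18r1 at 4.84 and Il18rap at 4.78 on the log2(CPM + 1) scale. Il18r1 and Il18rap have no value among genes at or above the median level. Il1rl2, Slc9a4 and Slc9a2 kept their calls in all 12 fits without a library, and 1 neighbour was called higher with genes at or above the median level, where fewer genes are tested. With the replicate block, 2412 genes were higher and 2431 lower, 1 neighbour was lower, the lists had 2 ligand genes and 3 receptor family genes lower, 3 transducers higher and 6 lower, and 10 NF-kB response genes higher and 1 lower. The block also added the calls of Il1r1, Mfsd9, Il33, Gsdmd, Il1rap, Sigirr, Sod2, Nfkbia, Kit, Adgre1 and Kdr and ended no call of a named gene. Genes at or above the median level gave 485 calls higher. A count of 1 transducer was lower with that filter and with limma without trend, and 0 lymphocyte products were higher with it and with quantile normalization. Quantile normalization also ended the call of Irak1 (adjusted p = 0.351), added that of Mfsd9 (0.0288) and reversed the uncalled differences of Il1rn (-0.0235), Il1a (-0.50), Cd8a (-0.85) and Il2ra (-0.45).

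Leaving out 1 library gave 1283 to 1480 genes higher and 445 to 718 lower, 0 to 1 transducers higher and 1 to 2 lower, and 0 to 2 NF-kB response genes higher. Uncalled differences that changed sign in these fits were those of Nlrp3 (-0.70 to 0.35), Il18bp (-0.262 to 0.0524), Il1rn (-0.27 to 0.72), Il1a (-0.17 to 0.88), Cd4 (-0.403 to 0.0465), Cd8a (-0.00637 to 0.671), Cdh5 (-0.69 to 0.92), Kdr (-0.0924 to 1.12), Ins1 (-0.0110 to 0.161) and Ins2 (-0.13 to 0.20). Mfsd9 was called in 1 of the 12 fits (adjusted p 0.0158 to 0.117). The causes were not tested. Depth limited the anti-control levels of Il18r1 and Il18rap, which rest on 10 to 72 reads per library, and that of Slc9a4, which rests on 8 reads in all.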
